A study of Homo sapiens with 18 samples.

Results

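The 41 genes described here encode proteins of the mitotic spindle, the kinetochore and the checkpoint that watches over them, together with the cyclin-dependent kinase machinery that drives mitosis. They were chosen by name with earlier results of these data known, so the counts called among them only describe the list. Each of the 41 symbols matched a single row among the 58381 rows of each of the 3 deposited count tables. The tables hold RNA sequencing of TC-32, TC-71 and A673, established Ewing sarcoma cell lines, from a cancer of bone and soft tissue that is driven in these lines by a fusion of EWSR1 to FLI1, an ETS family transcription factor. In each line, 3 libraries came from cells transfected with a small interfering RNA (siRNA) against FLI1, which also reaches the fusion transcript (siFLI1), and 3 from cells given a negative control (siNeg), giving 18 libraries in 6 groups of 3. Both siRNAs were used at 20 nM with the same lipid reagent. TC-32 and TC-71 grew in RPMI medium and A673 in DMEM, all with serum and the same antimicrobial additive. The column names give 48 h for TC-32 and TC-71 and no time for A673. The labels do not say that the replicates were separate cultures, so p-values measure only the spread between these libraries. Each line is a single cell line and 1 siRNA against FLI1 was used, so loss of the fusion and other effects of that siRNA cannot be told apart.

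A cell divides when cyclin-dependent kinase 1 joined to its cyclins switches on mitotic kinases, condenses the chromosomes and builds a bipolar spindle of microtubules. Kinetochores, protein platforms on each centromere, hold the chromosomes on the spindle, and the checkpoint keeps the anaphase-promoting complex idle until all are attached. Most of these genes are transcribed mainly in G2 and M phase, under the DREAM and MuvB complexes with MYBL2 and FOXM1, and their messages are scarce in resting cells.

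FLI1, the target of the siRNA, fell everywhere. Where 3 values follow each other without line names, they run in the order TC-32, TC-71, A673. The log2 fold changes of FLI1 (siFLI1 over siNeg) were -1.03, -1.47 and -2.09, with no overlap between siNeg and siFLI1 libraries. The total count of a library ranged from 24102487 to 33669271 (TC-32), from 19685354 to 37234528 (TC-71) and from 114564479 to 120993595 (A673). The coefficient of variation between replicates beyond counting noise, taken from the median dispersion fitted by edgeR, was 5.50%, 5.31% and 5.05%. The Ewing sarcoma markers NKX2-2, NR0B1, STEAP1 and PRKCB were detected in every line. CD99 was listed at 0 counts in all 6 TC-71 libraries. Its siNeg libraries held 3886 to 4374 counts in TC-32 and 43454 to 44832 in A673. Rows marked as the Y chromosome copy of a gene were not read, so these are counts of the X chromosome row of CD99. Whether the 0 in TC-71 comes from the cells or from the counting was not tested. Of 12 markers of leukocytes, endothelium, epithelium and muscle, 4 (PTPRC, CD3E, MYOD1 and MYOG) had at most 10 counts in every library. The summed level of the 12 was 3.92 to 6.11 CPM (read counts scaled to a common library total) in TC-32 siNeg and 18.8 to 22.7 CPM in TC-32 siFLI1, 0.625 to 1.41 and 1.32 to 2.14 CPM in TC-71. In A673 it was 7.32 to 8.94 and 14.0 to 15.3 CPM. CD68, CDH5 and DES were called higher in siFLI1 in TC-32 and A673, CDH1 in TC-32 and VWF in A673, and PECAM1 was called lower in TC-32 and A673. The part of these markers in the changes of the mitotic genes was not tested.

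All 41 mitotic genes fell after siFLI1 in all 3 lines. The fall was deepest in TC-32, intermediate in TC-71 and shallowest in A673, and this order of the estimates held for 41 of 41 genes. For 7 of them the difference between A673 and TC-71 was not called, as given below. Summed over the genes, TC-32 held 7059, 7145 and 6848 CPM in its siNeg libraries and 847, 760.0 and 812 CPM in its siFLI1 libraries. The sum in TC-71 was 6783, 6847 and 6508 CPM with siNeg and 2139, 1884 and 1974 CPM with siFLI1. The sum in A673 was 6235, 6416 and 6341 CPM with siNeg and 2800.4, 2667 and 2618 CPM with siFLI1. The siNeg sums of the 3 lines lay between 6235 and 7145 CPM, and the siFLI1 sums did not overlap between lines, with means of 806 ± 43.6, 1999 ± 129 and 2695 ± 94.5 CPM (SD, n = 3 each). Levels set across lines come from tables that were quantified separately. Because these are bulk samples, fewer cells in mitosis and less RNA per cell cannot be told apart.

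In the edgeR quasi-likelihood test, 41 of 41 genes were called lower in TC-32, where 40.1% of all genes tested were called lower and 41.3% higher. In TC-71 the count was again 41 of 41, beside 35% of all genes lower and 36.8% higher. In A673 it was 41 of 41, beside 35.4% lower and 35.6% higher. The largest adjusted p of any of the 41 was 2.27e-18 in TC-32 (BUB3), 3.78e-09 in TC-71 (CENPE) and 0.000672 in A673 (BUB3). Every siFLI1 library lay below every siNeg library for 41 of 41 genes in each line, a pattern seen in 40.7% of all TC-32 genes, 36% for TC-71 and 37% for A673. The median log2 fold change of the 41 was -3.27 (TC-32), -1.79 (TC-71), -1.30 (A673), against all-gene medians of 0.022, 0.018 and -0.0066. Expressed as the level left after siFLI1, the median gene kept 10.4% of its siNeg level in TC-32. It kept 28.8% in TC-71 and 40.6% in A673. A fall of at least 2-fold was called for 41 of 41 TC-32 genes (15.6% of all genes), 40 of 41 TC-71 genes (9.38%) and 35 of 41 A673 genes (9.87%). The genes that fell by less than 2-fold were BUB3 in TC-71 and BUB3, KIF18A, CCNB1, UBE2C, KIF23 and CCNA2 in A673.

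The ranges showed how uniform the fall was within a line. In TC-32, log2 fold changes ran from -3.70 to -1.47, from NUF2 to BUB3. In TC-71 they ran from -2.21 to -0.81, from NCAPH to BUB3. In A673 they ran from -1.90 to -0.18, from KIF14 to BUB3. BUB3 thus fell least in all 3 lines. FLI1 itself went the other way between lines, falling least in TC-32 and most in A673. The FLI1 row counts reads of the gene as a whole, and the fusion transcript was not measured apart from it. TC-71 and TC-32 shared the medium, the time in the column names and overlapping library totals, and differed in line, table and counting tool. A673 and TC-32 shared the counting tool by their table names, and differed in line, table, medium and depth, with no time given for A673. A673 and TC-71 differed in line, table, counting tool, medium and depth. The parts of those that differ within a pair cannot be told apart, except that depth can be made equal. After all libraries were thinned to the same depth, the medians were -3.26, -1.79 and -1.29, and the median differences of the fold changes were 1.33 (TC-71 minus TC-32), 1.86 (A673 minus TC-32) and 0.49 (A673 minus TC-71).

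**Figure D1:**
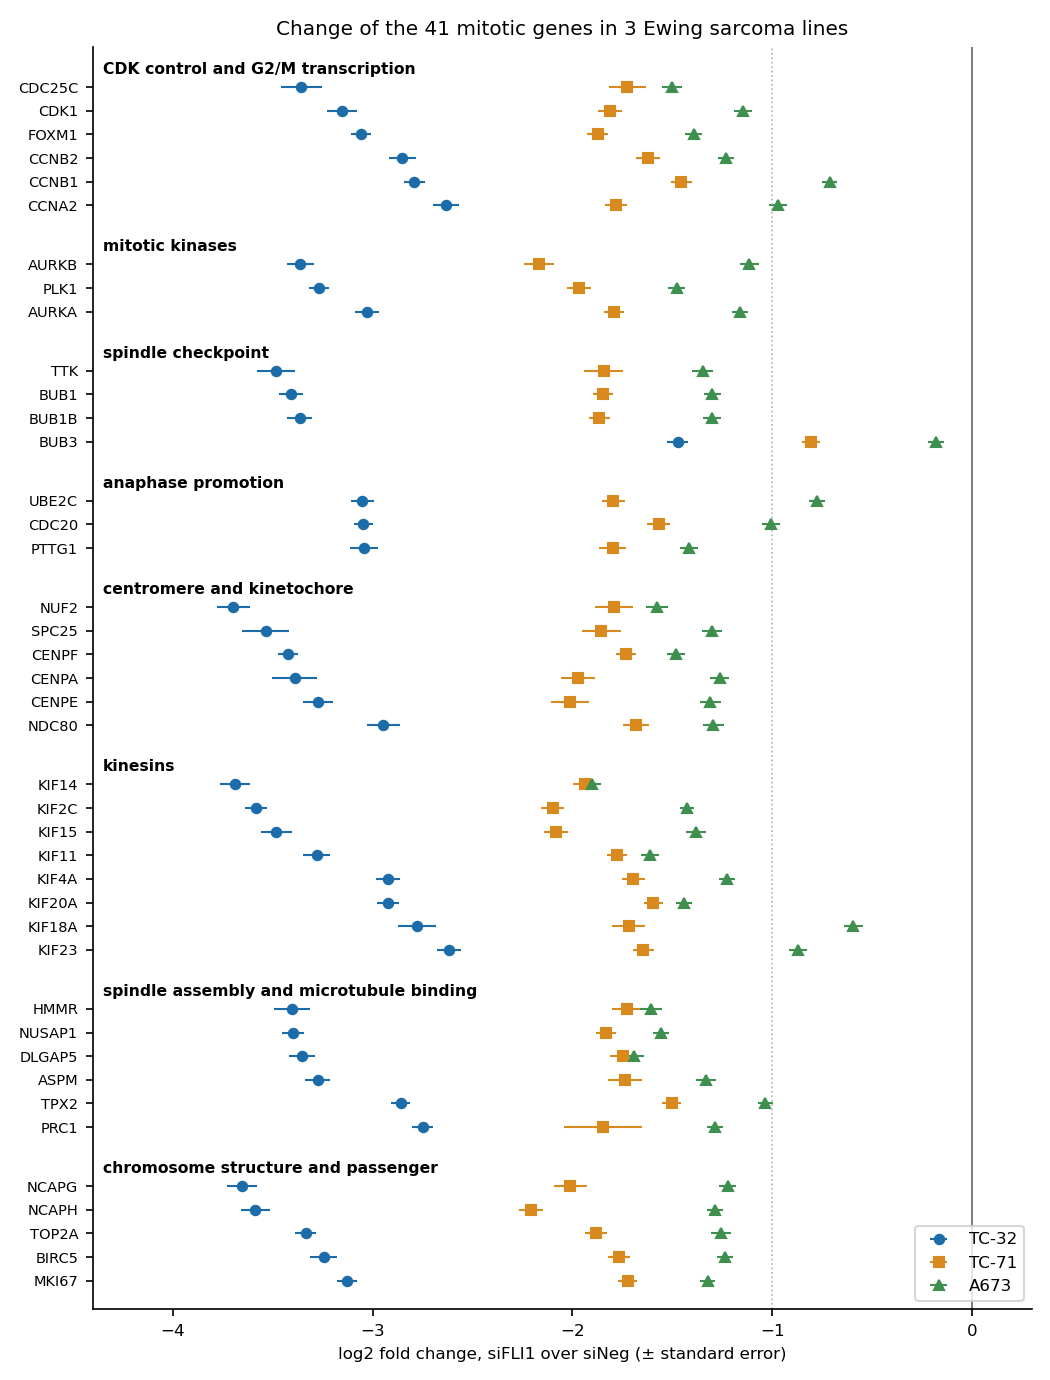
Log2 fold change of siFLI1 over siNeg (x axis, with standard error) for the 41 mitotic genes (y axis, grouped by role and ordered by the TC-32 value) in TC-32 (circles), TC-71 (squares) and A673 (triangles). In each row the TC-32 point lies farthest left and the A673 point farthest right, and the dotted line marks a 2-fold fall, which 6 genes miss in A673.

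What the genes share in their promoters was read from RefSeq windows (GRCh38.p14) of 250 bases before to 50 after each annotated start, which were found for 34 of the 41 genes. AURKA, BIRC5, BUB3, FOXM1, TPX2, TTK and UBE2C had no window in the table. The cell cycle homology region, the element through which MuvB complexes bind late cell cycle promoters, was searched as TTTGAA or TTCGAA on either strand. It occurred in 26 of the 34 genes (76.5%), against 19.5% of all 27305 genes of the table. Within 50 bases of the start it occurred in 22 genes (64.7%), against 6.24%. The letters CCAAT on either strand, the motif of NF-Y, occurred in 27 genes (79.4%), against 39.7%. Both elements together occurred in 21 (61.8%), against 7.85%. The other mitotic genes described below had nearly the same shares. Theirs were 73.9% for the homology region, 63% for it within 50 bases of the start, 71.7% for CCAAT and 58.7% for both. In replication genes these were 6.9%, 0%, 58.6% and 6.9%. The remaining lists had CCAAT in 37.5% to 44.4% and both elements in 0% to 12.5%. The ETS-type letters CCGGAAG occurred in 8 (23.5%), against 12.2%. This share was not particular to the 41 genes. Among the comparison lists described below, it was 33.3% for subunits of the anaphase-promoting complex and 31.2% for constitutive kinetochore and checkpoint genes. It was 23.9% for other mitotic genes and 17.2% for replication genes. CDK inhibitors and G1 cyclins had 11.1%, and MuvB, MYBL2 and pocket protein genes 10%. TTCGAA reads the same on both strands and was counted once, matches to different motifs can share a base, and a match is a description of the sequence, not a measured binding site.

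These 5 promoters are printed to show these layouts. CCNB2, a B-type cyclin, has 4 matches to CCAAT and the homology region 29 bases before the start. PLK1, a mitotic kinase, has a single pair at 73 and 29 bases before the start. KIF14 and NUF2 fell most in A673 and TC-32, and their homology regions begin 2 and 17 bases after the start. KIF2C, with a TC-32 log2 fold change of -3.58, has no match to either motif in its window. Capitals mark the matches to the homology region or CCAAT on either strand (ATTGG is the reverse of CCAAT), and each sequence runs 5′ to 3′ along the strand of its gene.
CCNB2 promoter, chr15:59104896-59105195, plus strand: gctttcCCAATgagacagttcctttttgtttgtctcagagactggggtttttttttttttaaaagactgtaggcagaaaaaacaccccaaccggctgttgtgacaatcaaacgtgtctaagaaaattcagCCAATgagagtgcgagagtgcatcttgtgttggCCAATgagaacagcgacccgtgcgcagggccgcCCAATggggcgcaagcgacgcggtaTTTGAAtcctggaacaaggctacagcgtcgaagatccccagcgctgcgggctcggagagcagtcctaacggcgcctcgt
PLK1 promoter, chr16:23678639-23678938, plus strand: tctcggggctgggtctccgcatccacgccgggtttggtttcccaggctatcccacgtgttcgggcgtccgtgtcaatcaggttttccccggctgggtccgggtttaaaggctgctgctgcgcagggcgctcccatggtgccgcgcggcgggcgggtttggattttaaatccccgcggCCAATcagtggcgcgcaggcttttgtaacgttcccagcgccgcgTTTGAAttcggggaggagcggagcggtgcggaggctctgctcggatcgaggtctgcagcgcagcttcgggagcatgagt
KIF14 promoter, chr1:200620702-200621001, minus strand: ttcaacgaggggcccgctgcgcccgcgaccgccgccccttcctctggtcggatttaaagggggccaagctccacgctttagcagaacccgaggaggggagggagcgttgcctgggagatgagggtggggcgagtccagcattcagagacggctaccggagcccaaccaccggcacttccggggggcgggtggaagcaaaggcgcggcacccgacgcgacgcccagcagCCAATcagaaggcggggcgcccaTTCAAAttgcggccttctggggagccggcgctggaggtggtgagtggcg
NUF2 promoter, chr1:163321704-163322003, plus strand: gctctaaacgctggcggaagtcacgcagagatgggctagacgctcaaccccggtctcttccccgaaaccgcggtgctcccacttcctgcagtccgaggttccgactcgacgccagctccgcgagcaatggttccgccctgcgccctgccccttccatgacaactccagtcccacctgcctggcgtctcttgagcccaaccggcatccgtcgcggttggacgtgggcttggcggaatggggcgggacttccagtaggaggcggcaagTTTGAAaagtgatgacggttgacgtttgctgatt
KIF2C promoter, chr1:44739587-44739886, plus strand: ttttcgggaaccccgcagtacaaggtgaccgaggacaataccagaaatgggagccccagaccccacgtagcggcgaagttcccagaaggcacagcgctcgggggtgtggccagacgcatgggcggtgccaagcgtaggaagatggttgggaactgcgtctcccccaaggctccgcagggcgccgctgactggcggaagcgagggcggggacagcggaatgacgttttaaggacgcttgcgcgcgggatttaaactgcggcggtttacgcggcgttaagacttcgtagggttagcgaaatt

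**Figure D2:**
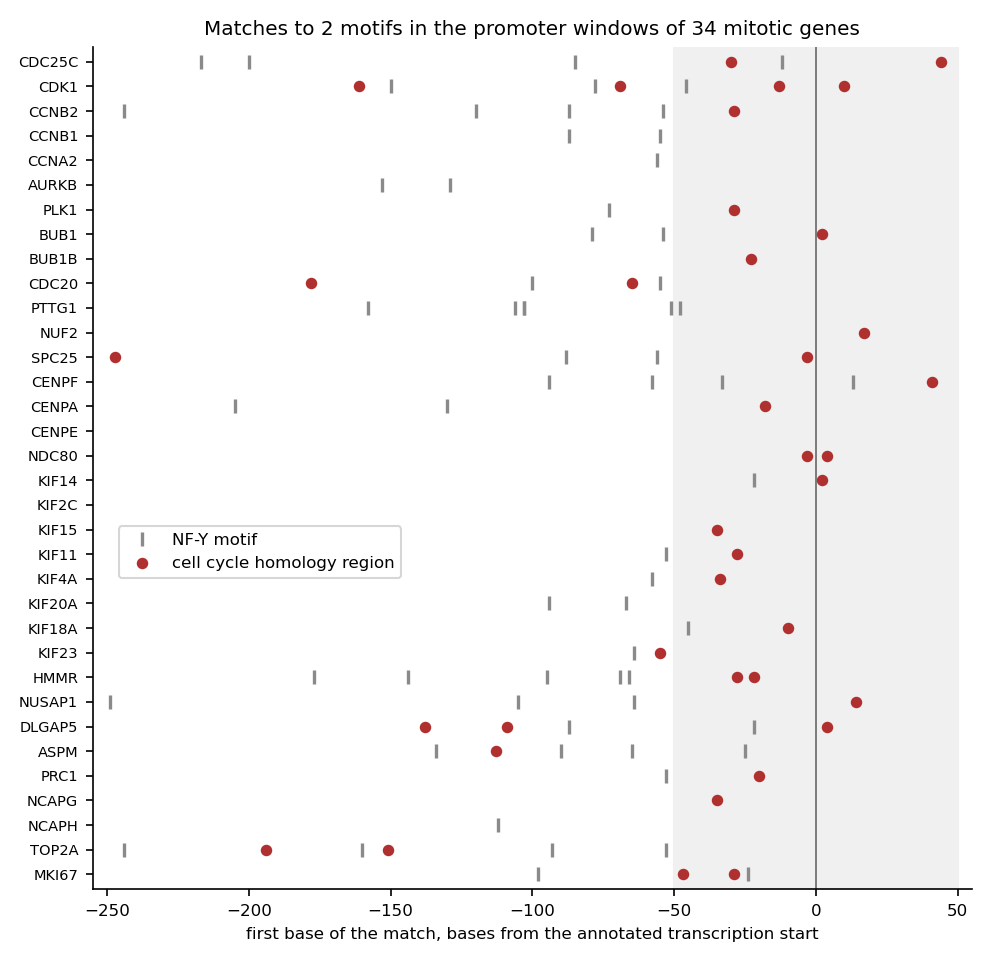
Position of each match to the cell cycle homology region (red circles) and the NF-Y motif (grey bars), in bases from the annotated transcription start (x axis), in the windows of the 34 mitotic genes that have them (y axis), with the matches of every window drawn for the 4 genes that have more than 1. The circles gather in the grey band within 50 bases of the start, where 22 genes have a match, and CENPE and KIF2C have no match at all.

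The genes that commit a cell to mitosis, CDK1 with its cyclins and activators and FOXM1, fell by medians of -2.95 (TC-32), -1.75 (TC-71), -1.19 (A673), all 6 called lower in each line. CDK1 (chromosome 10, 60778331 to 60794852, plus strand, GENCODE release 44, GRCh38) encodes the kinase that starts mitosis. In TC-32, CDK1 was at 111, 113 and 102 CPM with siNeg and 13.1, 10.5 and 13.3 CPM with siFLI1. In TC-71, CDK1 was at 148, 149.9 and 134 CPM against 45.2, 37.7 and 40.1 CPM. In A673, CDK1 was at 163, 164 and 167 CPM against 79.7, 71.7 and 71.6 CPM. Its siFLI1 libraries all lay under the siNeg libraries of the same line, with log2 fold changes of -3.15, -1.81 and -1.15 (SE 0.074, 0.06 and 0.045). CCNB1 encodes cyclin B1, the main partner of CDK1 in mitosis. For TC-32, CCNB1 measured 220.2, 223 and 215 CPM in siNeg and 30.7, 31.2 and 33.4 CPM in siFLI1. For TC-71, CCNB1 measured 184, 181 and 172 CPM in siNeg and 71.9, 61.0 and 63.3 CPM in siFLI1. For A673, CCNB1 measured 212, 215 and 210.1 CPM in siNeg and 136, 126 and 127 CPM in siFLI1. With log2 fold changes of -2.79, -1.45 and -0.71 (SE 0.05, 0.053 and 0.038), CCNB1 was among the 6 genes whose A673 fall stayed under 2-fold. FOXM1 encodes a transcription factor of G2 and M phase genes, and 15.9% of its exon bases are shared with genes on the opposite strand. FOXM1 in TC-32 stood at 194, 194 and 203 CPM in siNeg and at 23.5, 23.9 and 23.6 CPM in siFLI1. TC-71 held FOXM1 at 173, 164 and 168 CPM and, after siFLI1, at 49.7, 43.0 and 45.4 CPM. A673 held FOXM1 at 275, 259.9 and 258 CPM in siNeg and 97.3, 106 and 98.7 CPM in siFLI1. The groups did not overlap in any line, and FOXM1 had log2 fold changes of -3.06, -1.87 and -1.39 (SE 0.051, 0.052 and 0.042). Cyclin A2 (CCNA2), which serves S and G2 phase, had log2 fold changes of -2.63, -1.78 and -0.97 (SE 0.065, 0.056 and 0.046). CCNB2, the other mitotic cyclin B, had log2 fold changes of -2.85, -1.62 and -1.23 (SE 0.069, 0.061 and 0.041). CDC25C, the phosphatase that frees CDK1 from inhibitory phosphates, had log2 fold changes of -3.36, -1.72 and -1.50 (SE 0.1, 0.094 and 0.052), the largest fall of this group in TC-32 and in A673.

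The 3 mitotic kinases fell by medians of -3.27 (TC-32), -1.97 (TC-71), -1.16 (A673). PLK1 encodes polo-like kinase 1, which acts from centrosome maturation to cytokinesis. In TC-32, PLK1 was at 230.999, 231.80 and 242 CPM with siNeg and 24.0, 24.3 and 24.8 CPM with siFLI1. In TC-71, PLK1 was at 258, 258 and 251 CPM against 74.9, 59.7 and 61.8 CPM. In A673, PLK1 was at 181, 174 and 176 CPM against 61.6, 67.5 and 61.5 CPM. PLK1 showed the deepest A673 fall of the kinases, with log2 fold changes of -3.27, -1.97 and -1.48 (SE 0.051, 0.061 and 0.043). AURKA encodes the kinase of centrosomes and spindle poles. For TC-32, AURKA measured 139, 144 and 137 CPM in siNeg and 18.8, 16.6 and 16.3 CPM in siFLI1. For TC-71, AURKA measured 176, 171 and 172 CPM in siNeg and 52.4, 46.7 and 50.6 CPM in siFLI1. For A673, AURKA measured 122, 120.4 and 118 CPM in siNeg and 56.03, 52.5 and 52.7 CPM in siFLI1. The AURKA groups were apart in each line, and gave log2 fold changes of -3.03, -1.79 and -1.16 (SE 0.06, 0.05 and 0.04). AURKB (chromosome 17, 8204733 to 8210600, minus strand) encodes the kinase of the chromosomal passenger complex, which corrects faulty attachments. AURKB in TC-32 stood at 87.1, 93.6 and 97.4 CPM in siNeg and at 9.24, 8.67 and 9.204 CPM in siFLI1. TC-71 held AURKB at 102, 99.0 and 101 CPM and, after siFLI1, at 26.8, 19.8 and 20.9 CPM. A673 held AURKB at 90.8, 83.0 and 85.0 CPM in siNeg and 38.3, 41.9 and 39.3 CPM in siFLI1. AURKB had the deepest fall of the 3 in TC-32 and TC-71 and lay beside AURKA in A673, with log2 fold changes of -3.36, -2.17 and -1.12 (SE 0.068, 0.075 and 0.047).

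Of the spindle checkpoint genes, BUB1, BUB1B and TTK fell like the bulk of the 41 and BUB3 fell much less. BUB1B encodes BUBR1, part of the complex that holds CDC20 inactive. In TC-32, BUB1B was at 194, 197 and 183 CPM with siNeg and 20.5, 16.9 and 18.5 CPM with siFLI1. In TC-71, BUB1B was at 158, 165 and 155 CPM against 45.7, 40.3 and 45.3 CPM. In A673, BUB1B was at 197, 208 and 203 CPM against 87.4, 81.1 and 78.6 CPM. These gave log2 fold changes of -3.37, -1.86 and -1.30 (SE 0.062, 0.053 and 0.044). BUB3 (chromosome 10, 123154402 to 123170467, plus strand) encodes the adaptor that brings BUB1 and BUBR1 to the kinetochore. For TC-32, BUB3 measured 133, 135 and 125 CPM in siNeg and 48.3, 44.9 and 48.4 CPM in siFLI1. For TC-71, BUB3 measured 157, 154 and 150.03 CPM in siNeg and 85.2, 87.7 and 90.7 CPM in siFLI1. For A673, BUB3 measured 129, 130.3 and 127 CPM in siNeg and 119, 110.4 and 112 CPM in siFLI1. The A673 groups of BUB3 came close together without overlap, with 127 CPM in the lowest siNeg library and 119 CPM in the highest siFLI1 library. Its log2 fold changes of -1.47, -0.81 and -0.18 (SE 0.052, 0.046 and 0.039) left 36.1%, 57.1% and 88.3% of the siNeg level. BUB1, the kinase that anchors the checkpoint at kinetochores, had log2 fold changes of -3.41, -1.85 and -1.30 (SE 0.061, 0.05 and 0.042). TTK, also called MPS1, which starts checkpoint signalling, had log2 fold changes of -3.48, -1.84 and -1.35 (SE 0.094, 0.097 and 0.051).

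The genes that act on the anaphase-promoting complex at the end of metaphase fell by medians of -3.05 (TC-32), -1.79 (TC-71), -1.01 (A673). CDC20 encodes the activator that the checkpoint restrains. CDC20 in TC-32 stood at 269, 272 and 275 CPM in siNeg and at 32.8, 32.7 and 33.2 CPM in siFLI1. TC-71 held CDC20 at 310.3, 300.4 and 299 CPM and, after siFLI1, at 116, 94.8 and 96.4 CPM. A673 held CDC20 at 179.7, 167 and 167 CPM in siNeg and 79.7, 89.5 and 86.5 CPM in siFLI1. The groups were apart in every line, with log2 fold changes of -3.05, -1.57 and -1.01 (SE 0.047, 0.058 and 0.047), and CDC20 had the highest siNeg level per kilobase of exon of the 41 in TC-32 and TC-71, at 135 and 151 CPM per kb. PTTG1 encodes securin, the inhibitor of separase that is destroyed at anaphase. In TC-32, PTTG1 was at 78.2, 83.4 and 75.9 CPM with siNeg and 8.89, 9.59 and 10.3 CPM with siFLI1. In TC-71, PTTG1 was at 61.8, 57.8 and 55.6 CPM against 18.3, 16.1 and 16.2 CPM. In A673, PTTG1 was at 47.3, 46.1 and 46.5 CPM against 18.2, 16.7 and 17.5 CPM. PTTG1 gave log2 fold changes of -3.04, -1.80 and -1.42 (SE 0.07, 0.068 and 0.046). UBE2C, the ubiquitin-conjugating enzyme of the complex, had log2 fold changes of -3.05, -1.79 and -0.77 (SE 0.058, 0.058 and 0.041), which placed it among the 6 shallow falls in A673. In TC-32 the 3 genes differed by less than their standard errors.

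The 6 centromere and kinetochore genes fell by medians of -3.41 (TC-32), -1.82 (TC-71), -1.31 (A673). CENPA encodes the histone H3 variant that marks centromeres. For TC-32, CENPA measured 21.9, 25.7 and 25.9 CPM in siNeg and 2.57, 2.02 and 2.47 CPM in siFLI1. For TC-71, CENPA measured 43.5, 41.9 and 41.3 CPM in siNeg and 13.0, 9.37 and 10.2 CPM in siFLI1. For A673, CENPA measured 26.0, 27.1 and 26.6 CPM in siNeg and 11.5, 10.99 and 10.8 CPM in siFLI1. Its groups did not overlap, and it had log2 fold changes of -3.39, -1.97 and -1.26 (SE 0.11, 0.085 and 0.049). CENPF encodes a large protein of the outer kinetochore. CENPF in TC-32 stood at 775, 815 and 773 CPM in siNeg and at 79.5, 67.8 and 73.4 CPM in siFLI1. TC-71 held CENPF at 294, 306 and 293 CPM and, after siFLI1, at 97.2, 85.4 and 86.1 CPM. A673 held CENPF at 500.0, 536 and 521 CPM in siNeg and 198, 184 and 176 CPM in siFLI1. CENPF gave log2 fold changes of -3.42, -1.73 and -1.48 (SE 0.052, 0.049 and 0.044). NDC80 and NUF2 form the arm of the NDC80 complex that grips microtubules. In TC-32, NDC80 was at 44.1, 42.9 and 40.7 CPM with siNeg and 5.90, 4.99 and 5.75 CPM with siFLI1. In TC-71, NDC80 was at 81.8, 83.9 and 73.1 CPM against 27.2, 23.5 and 23.9 CPM. In A673, NDC80 was at 65.6, 69.8 and 69.9 CPM against 30.2, 26.2 and 27.2 CPM. For NDC80 these were log2 fold changes of -2.95, -1.68 and -1.30 (SE 0.082, 0.065 and 0.053). NUF2 (chromosome 1, 163266576 to 163355764, plus strand) fell more than any other of the 41 in TC-32. For TC-32, NUF2 measured 65.4, 66.2 and 58.8 CPM in siNeg and 5.44, 4.31 and 5.04 CPM in siFLI1. For TC-71, NUF2 measured 56.2, 63.3 and 46.7 CPM in siNeg and 16.4, 14.1 and 17.1 CPM in siFLI1. For A673, NUF2 measured 69.0, 73.0 and 74.3 CPM in siNeg and 26.3, 22.4 and 23.9 CPM in siFLI1. The NUF2 libraries of TC-32 kept 7.77% of the siNeg level, and its log2 fold changes of -3.70, -1.79 and -1.58 (SE 0.084, 0.095 and 0.055) put TC-71 and A673 close together. SPC25, of the same complex, had log2 fold changes of -3.54, -1.86 and -1.30 (SE 0.12, 0.099 and 0.052). CENPE, the kinesin that carries chromosomes to the spindle equator, had log2 fold changes of -3.27, -2.01 and -1.31 (SE 0.074, 0.095 and 0.053).

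Among the 8 kinesins, motor proteins that move along or remodel microtubules, the medians were -3.10 (TC-32), -1.75 (TC-71), -1.40 (A673), and the A673 values covered a wider range than in the other role groups, from -1.90 to -0.59. KIF11 encodes the motor that pushes spindle poles apart. KIF11 in TC-32 stood at 147, 142 and 139 CPM in siNeg and at 16.4, 13.0 and 14.9 CPM in siFLI1. TC-71 held KIF11 at 188, 200.4 and 177 CPM and, after siFLI1, at 55.9, 53.8 and 55.1 CPM. A673 held KIF11 at 158, 172 and 169 CPM in siNeg and 57.5, 53.5 and 52.2 CPM in siFLI1. KIF11 had log2 fold changes of -3.28, -1.78 and -1.61 (SE 0.066, 0.051 and 0.046). KIF14 (chromosome 1, 200551497 to 200620751, minus strand), a motor of cytokinesis, had the deepest fall of the 41 in A673. In TC-32, KIF14 was at 91.9, 86.5 and 82.5 CPM with siNeg and 7.09, 6.03 and 7.21 CPM with siFLI1. In TC-71, KIF14 was at 84.5, 91.1 and 79.7 CPM against 23.4, 21.8 and 21.5 CPM. In A673, KIF14 was at 119.9, 130.3 and 123 CPM against 35.3, 31.9 and 32.5 CPM. Its log2 fold changes of -3.69, -1.94 and -1.90 (SE 0.075, 0.062 and 0.048) were nearly equal in TC-71 and A673. KIF18A (chromosome 11, 28020619 to 28108156, minus strand) encodes a motor that damps chromosome movements at the spindle equator. For TC-32, KIF18A measured 24.9, 25.5 and 23.5 CPM in siNeg and 3.68, 3.33 and 3.79 CPM in siFLI1. For TC-71, KIF18A measured 29.3, 31.4 and 28.2 CPM in siNeg and 8.31, 8.61 and 9.81 CPM in siFLI1. For A673, KIF18A measured 94.0, 101 and 98.7 CPM in siNeg and 69.3, 62.5 and 63.1 CPM in siFLI1. The A673 siNeg mean of 98.1 CPM stood above the means of 24.6 CPM in TC-32 and 29.6 CPM in TC-71, and the fall of KIF18A was smallest in A673, with log2 fold changes of -2.78, -1.72 and -0.59 (SE 0.095, 0.083 and 0.047).

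KIF20A carries the passenger complex to the central spindle in anaphase. KIF20A in TC-32 stood at 162, 172 and 165 CPM in siNeg and at 23.6, 20.6 and 21.8 CPM in siFLI1. TC-71 held KIF20A at 209.9, 194 and 202 CPM and, after siFLI1, at 70.8, 65.2 and 64.9 CPM. A673 held KIF20A at 165, 171 and 163 CPM in siNeg and 62.2, 62.2 and 59.1 CPM in siFLI1. The 3 lines gave log2 fold changes of -2.92, -1.59 and -1.44 (SE 0.057, 0.049 and 0.039). KIF23 encodes a motor of centralspindlin, which organises the division plane. In TC-32, KIF23 was at 154, 168 and 162 CPM with siNeg and 27.9, 23.7 and 27.6 CPM with siFLI1. In TC-71, KIF23 was at 151, 145 and 144 CPM against 50.05, 43.4 and 46.9 CPM. In A673, KIF23 was at 163, 168 and 166 CPM against 96.2, 86.0 and 89.4 CPM. KIF23 gave log2 fold changes of -2.62, -1.64 and -0.87 (SE 0.061, 0.053 and 0.043), the shallowest fall of the kinesins in TC-32. KIF2C, which takes microtubules apart at centromeres, had log2 fold changes of -3.58, -2.10 and -1.43 (SE 0.055, 0.057 and 0.037), beside KIF15 the deepest of the kinesins in TC-71. KIF4A, a motor bound to chromosome arms, had log2 fold changes of -2.92, -1.69 and -1.23 (SE 0.06, 0.059 and 0.038). KIF15, a spindle motor that can stand in for KIF11, had log2 fold changes of -3.48, -2.08 and -1.38 (SE 0.077, 0.061 and 0.052).

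The 6 genes of spindle assembly and microtubule binding fell by medians of -3.31 (TC-32), -1.74 (TC-71), -1.44 (A673). NUSAP1 encodes a protein that bundles spindle microtubules near chromosomes. For TC-32, NUSAP1 measured 215, 219 and 206 CPM in siNeg and 21.9, 18.8 and 20.2 CPM in siFLI1. For TC-71, NUSAP1 measured 206, 198 and 187 CPM in siNeg and 58.3, 53.3 and 54.7 CPM in siFLI1. For A673, NUSAP1 measured 120.3, 126 and 125 CPM in siNeg and 43.7, 40.9 and 41.7 CPM in siFLI1. NUSAP1 had log2 fold changes of -3.40, -1.83 and -1.56 (SE 0.057, 0.05 and 0.041), and 86.8% of its exon bases are shared with other annotated genes on the same strand. TPX2, which activates AURKA on the spindle, had log2 fold changes of -2.86, -1.50 and -1.03 (SE 0.048, 0.046 and 0.037), the shallowest of this group in TC-71 and A673. HMMR, a spindle pole protein, had log2 fold changes of -3.40, -1.73 and -1.61 (SE 0.089, 0.074 and 0.054). ASPM, also of the poles, had log2 fold changes of -3.27, -1.74 and -1.33 (SE 0.063, 0.085 and 0.049). DLGAP5, which stabilises kinetochore fibres, had log2 fold changes of -3.35, -1.75 and -1.69 (SE 0.067, 0.065 and 0.054). PRC1, which crosslinks microtubules of the central spindle, had log2 fold changes of -2.75, -1.85 and -1.29 (SE 0.052, 0.19 and 0.039).

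The level of PRC1 in TC-71 is uncertain. Its siNeg libraries held 76 to 127 counts there, against 5356 to 6021 in TC-32 and 27288 to 27954 in A673. Of the exon bases of PRC1, 57.6% are shared with annotated genes on the same strand and 34.3% with genes on the opposite strand, and the overlapping genes are ENSG00000284946 and PRC1-AS1. The deposited row of ENSG00000284946 held 219 to 304 counts in TC-71 siNeg, 1132 to 1321 in TC-32 siNeg and 4427 to 4545 in A673 siNeg. The name of the TC-71 table attributes its counts to Subread and the names of the other 2 tables to RSEM, and the part of the counting tool in this gap was not tested. The library kit was stranded, and whether strand was used in counting is not given in the sources used here.

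Genes of chromosome structure and the passenger complex fell by medians of -3.33 (TC-32), -1.88 (TC-71), -1.26 (A673). TOP2A encodes the topoisomerase that untangles sister chromatids. TOP2A in TC-32 stood at 817, 799.9 and 750.3 CPM in siNeg and at 84.0, 72.6 and 78.5 CPM in siFLI1. TC-71 held TOP2A at 452, 447 and 402 CPM and, after siFLI1, at 126, 108 and 119 CPM. A673 held TOP2A at 262, 287 and 281 CPM in siNeg and 125, 111 and 112 CPM in siFLI1. TOP2A had log2 fold changes of -3.33, -1.88 and -1.26 (SE 0.052, 0.053 and 0.049). NCAPG (chromosome 4, 17810979 to 17844865, plus strand) and NCAPH (chromosome 2, 96335766 to 96377091, plus strand) encode subunits of condensin I, which compacts chromosomes. In TC-32, NCAPG was at 118, 115 and 109.7 CPM with siNeg and 10.2, 7.75 and 9.47 CPM with siFLI1. In TC-71, NCAPG was at 139, 161 and 120.0 CPM against 36.3, 33.96 and 33.7 CPM. In A673, NCAPG was at 164, 166 and 165 CPM against 74.6, 68.9 and 68.4 CPM. For NCAPG the groups were apart in every line, with log2 fold changes of -3.65, -2.01 and -1.22 (SE 0.074, 0.084 and 0.041), and 33.7% of its exon bases are shared with a gene on the opposite strand. For TC-32, NCAPH measured 80.0, 80.2 and 77.9 CPM in siNeg and 7.43, 6.15 and 6.33 CPM in siFLI1. For TC-71, NCAPH measured 137, 131 and 138 CPM in siNeg and 33.1, 27.8 and 27.5 CPM in siFLI1. For A673, NCAPH measured 79.8, 82.7 and 81.6 CPM in siNeg and 34.1, 33.3 and 32.5 CPM in siFLI1. NCAPH had the deepest TC-71 fall of the 41, with log2 fold changes of -3.59, -2.21 and -1.29 (SE 0.073, 0.06 and 0.041). MKI67 encodes Ki-67, the coat protein of mitotic chromosomes used as a proliferation marker. MKI67 in TC-32 stood at 627, 609.7 and 624 CPM in siNeg and at 77.0, 66.4 and 69.9 CPM in siFLI1. TC-71 held MKI67 at 678, 686 and 728 CPM and, after siFLI1, at 225, 198 and 211 CPM. A673 held MKI67 at 545, 551 and 555 CPM in siNeg and 221, 227.10 and 212 CPM in siFLI1. MKI67 gave log2 fold changes of -3.13, -1.72 and -1.32 (SE 0.049, 0.046 and 0.036). BIRC5 encodes survivin, which targets AURKB to centromeres. In TC-32, BIRC5 was at 108, 116 and 109.6 CPM with siNeg and 11.9, 12.7 and 10.6 CPM with siFLI1. In TC-71, BIRC5 was at 299.9, 288 and 285 CPM against 95.9, 79.7 and 81.5 CPM. In A673, BIRC5 was at 130.2, 131 and 133 CPM against 57.5, 55.8 and 53.8 CPM. BIRC5 had log2 fold changes of -3.24, -1.77 and -1.24 (SE 0.066, 0.055 and 0.039), and its TC-71 siNeg libraries stood highest of the 3 lines.

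**Figure D3:**
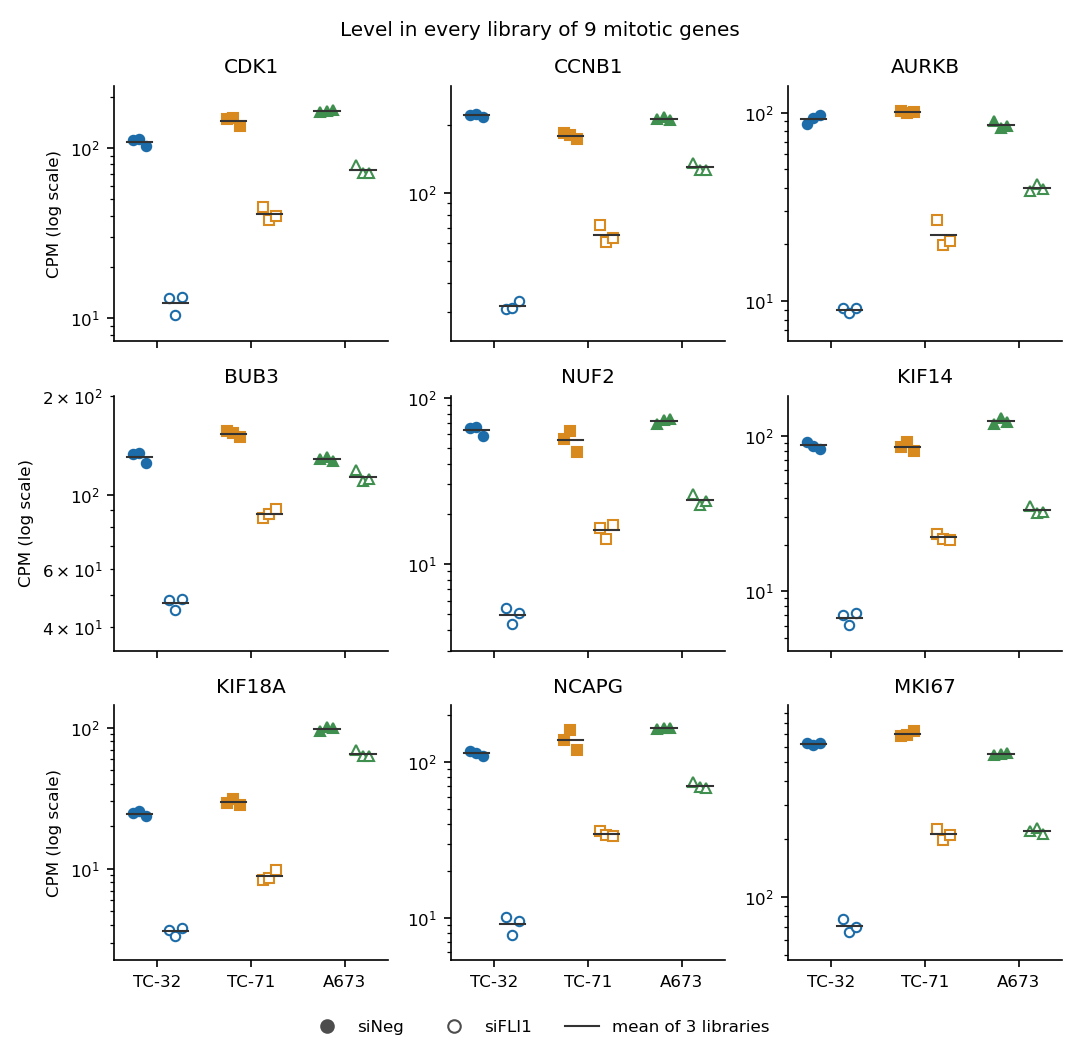
Level in CPM (y axis, log scale, each panel with its own range) of 9 mitotic genes in every library of the 3 lines (x axis), with siNeg as filled and siFLI1 as open symbols and the mean of 3 libraries as a line. The open symbols lie under the filled ones in each panel and line, with the smallest gap for BUB3 in A673.

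Whether siFLI1 acted differently between lines was tested by the difference of the fold changes in a model over all 18 libraries. Relative to TC-32, the fall in A673 was shallower for 41 of 41 genes, beside 32.2% of all genes with a called positive difference. The median difference was 1.91, against -0.015 over all genes. It was largest for NCAPG at 2.41 (SE 0.11, edgeR adjusted p = 6.04e-16) and NCAPH at 2.28 (SE 0.09, edgeR adjusted p = 2.33e-21), and smallest for BUB3 at 1.27 (SE 0.064, edgeR adjusted p = 1.96e-18). The fall in TC-71 was shallower than in TC-32 for 41 of 41 genes, beside 32.7% of all genes, with a median difference of 1.41 against 0.11 over all genes. NUF2 at 1.92 (SE 0.15, edgeR adjusted p = 4.36e-11) and KIF14 at 1.76 (SE 0.099, edgeR adjusted p = 7.38e-17) led, and BUB3 came last at 0.67 (SE 0.066, edgeR adjusted p = 9.24e-11). These comparisons share the TC-32 libraries.

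A673 and TC-71 were closer to each other. The A673 fall was shallower for 34 of 41 genes, beside 23.2% of all genes, with a median difference of 0.52 against -0.075 over all genes. KIF18A at 1.09 (SE 0.09, edgeR adjusted p = 1.89e-12) and AURKB at 1.02 (SE 0.092, edgeR adjusted p = 3.62e-11) differed most, and CENPF at 0.22 (SE 0.071, edgeR adjusted p = 0.0108) had the smallest difference that was called. With the library size as the only scaling, CENPF was no longer called, at 0.16, nor without replicate 2 of TC-71 siFLI1, at 0.17. The 7 genes with no called difference were CDC25C at 0.19 (SE 0.11, edgeR adjusted p = 0.169), NUF2 at 0.18 (SE 0.12, edgeR adjusted p = 0.23), KIF11 at 0.13 (SE 0.075, edgeR adjusted p = 0.145) and KIF20A at 0.12 (SE 0.066, edgeR adjusted p = 0.131), and HMMR at 0.085 (SE 0.11, edgeR adjusted p = 0.553), DLGAP5 at 0.019 (SE 0.088, edgeR adjusted p = 0.916) and KIF14 at 0.00025 (SE 0.081, edgeR adjusted p = 1). A p over the threshold does not show that these genes fell alike. By role, the A673 fall was shallower for 5 of 6 genes of CDK control, 3 of 3 kinases, 4 of 4 checkpoint genes, 3 of 3 anaphase genes, 5 of 6 kinetochore genes, 5 of 8 kinesins, 4 of 6 spindle assembly genes and 5 of 5 of chromosome structure.

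**Figure D4:**
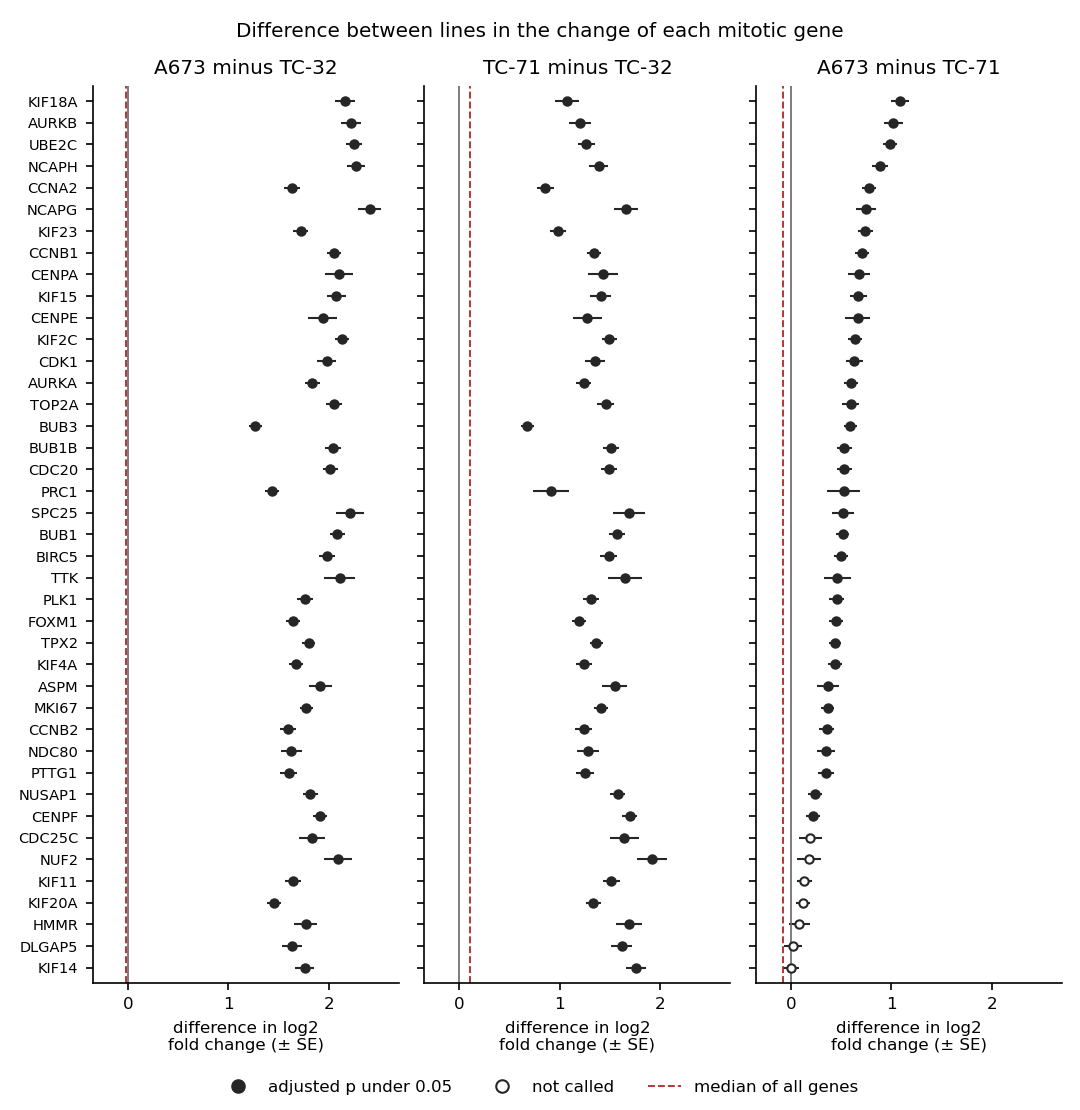
Difference in log2 fold change between lines (x axis, with standard error) for the 41 mitotic genes (y axis, ordered by A673 minus TC-71), with called differences filled and the median over all genes as a dashed line. All points of the A673 minus TC-32 and TC-71 minus TC-32 panels are filled and right of 0, and the 7 open points of the A673 minus TC-71 panel lie nearest to 0.

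The genes kept part of their order from line to line. Over the 41 genes, Pearson's r of the log2 fold changes was 0.80 between TC-32 and TC-71, 0.76 between TC-32 and A673 and 0.56 between TC-71 and A673. Without BUB3 these fell to 0.63, 0.64 and 0.29 over 40 genes. They describe genes within these lines, which share libraries and depth, and carry no test. The fall in TC-32 exceeded the deepest fall in TC-71 or A673 for 40 of 41 genes, all but BUB3, and the fall in TC-71 exceeded the deepest A673 fall for 9. The level per kilobase in siNeg said little about the fall, with Spearman's rho of 0.23, 0.089 and 0.26 over the lines.

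The rest of the mitotic programme was read from a list of 54 other mitotic genes, listed as induced in the cell cycle. Some may peak before G2 and M phase, and their timing was not measured here. They were called lower for 54 of 54 (TC-32), 54 of 54 (TC-71), 53 of 54 (A673), beside 40.1%, 35% and 35.4% of all genes, with medians of -2.93 (TC-32), -1.78 (TC-71), -1.03 (A673). In A673, NEK2, a centrosome kinase, fell most of the list, at -3.27, -1.74 and -1.88 log2 units. DEPDC1 followed, with -3.52, -1.96 and -1.48. ANLN, an actin-binding protein of the cleavage furrow, fell in A673 from 263 ± 5.44 to 201 ± 10.3 CPM (SD, n = 3), with -2.26, -1.72 and -0.39 over the lines. CDC25B, a CDK1-activating phosphatase that acts earlier than CDC25C, was the exception, called lower in TC-32 and TC-71 (-1.05 and -0.45) and measured at 184 ± 4.08 CPM in siNeg and 189 ± 4.16 CPM in siFLI1 in A673, where it was not called.

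Genes of DNA replication, which act in S phase, were called lower for 32 of 32 (TC-32), 31 of 32 (TC-71), 29 of 32 (A673), beside 40.1%, 35% and 35.4% of all genes, with medians of -3.01 (TC-32), -1.89 (TC-71), -0.74 (A673). The A673 median of this list lay closer to 0 than that of the 41 mitotic genes. GINS1, of the replicative helicase, had the largest A673 fall of this list, with -3.76, -2.12 and -1.39 over the lines. CHAF1B, a histone chaperone subunit, had -2.74, -2.01 and -1.27. The cyclins E, which start S phase, behaved otherwise in A673. CCNE1 rose there from 10.6 ± 0.566 to 18.4 ± 0.512 CPM, with -1.80 in TC-32 and -0.18, not called, in TC-71. CCNE2 stood at 12.9 ± 0.245 and 13.3 ± 0.502 CPM in A673, not called, and had -3.04 and -2.08 in TC-32 and TC-71. The cell cycle homology region occurred in 2 of 29 promoter windows of the replication genes and in 34 of 46 of the other mitotic genes.

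A further list held kinetochore and checkpoint genes taken as constitutive, with messages that vary little over the cell cycle, which was not measured here. They were called lower for 13 of 17 (TC-32), 11 of 17 (TC-71), 8 of 17 (A673) and higher for 1, 2 and 4. Their medians were -0.76 (TC-32), -0.38 (TC-71), -0.035 (A673). Over all genes tested, 40.1%, 35% and 35.4% were called lower and 41.3%, 36.8% and 35.6% higher. A fall of at least 2-fold was called for 8, 1 and 1 of the 17, beside 15.6%, 9.38% and 9.87% of all genes. KNTC1, which recruits the checkpoint and dynein to kinetochores, fell like the 41 genes, with -2.81, -2.05 and -1.26. CENPS had -1.76, -0.69 and -0.82, and in TC-71 it held 21 to 43 counts and was not called, although 8 alternatives called it. Of the exon bases of CENPS, 65% are shared with annotated genes on the same strand, and the part of this in its counts was not tested. PAFAH1B1, the dynein regulator LIS1, was called higher in TC-71 (0.42) and A673 (0.20) and had 0.015 in TC-32. CENPB, which binds centromeric repeats, had -0.73, -0.56 and 0.16, and its A673 call was lost with the library size as the only scaling (0.058) and without replicate 3 of A673 siNeg (0.15).

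Subunits of the anaphase-promoting complex were called lower for 10 of 15 (TC-32), 10 of 15 (TC-71), 8 of 15 (A673) and higher for 2, 1 and 5, with medians of -0.41 (TC-32), -0.21 (TC-71), -0.22 (A673). The shares over all genes were 40.1%, 35% and 35.4% lower and 41.3%, 36.8% and 35.6% higher, and the 5 of 15 subunits higher in A673 lay near that share. ANAPC15 had the largest A673 fall of this list, with -1.23, -0.45 and -0.62 over the 3 lines. The G1 activator FZR1 had -0.42, -0.33 and -0.48. ANAPC13 was called higher in each line, with 0.22, 0.33 and 0.44, a call that in TC-32 was lost without replicate 1 of siFLI1 (0.18). CDC27 fell in TC-32 (-0.41) and rose in A673 (0.27). In TC-71 it had -0.14, a call lost without replicate 2 of siNeg (-0.098) or replicate 1 of siFLI1 (-0.09). The list medians were closer to 0 than the values of CDC20 and UBE2C, which act with the complex.

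Genes of the MuvB core, MYBL2 and the pocket proteins, known as regulators of late cell cycle promoters, were called lower for 10 of 11 (TC-32), 8 of 11 (TC-71), 7 of 11 (A673) and higher for 1, 0 and 2, with medians of -1.28 (TC-32), -0.60 (TC-71), -0.16 (A673). Beside these stand 40.1%, 35% and 35.4% of all genes called lower and 41.3%, 36.8% and 35.6% called higher. MYBL2, the MuvB partner that switches on late cell cycle genes, fell from 273 ± 5.18 to 30.7 ± 1.80 CPM in TC-32. In TC-71 MYBL2 went from 412 ± 10.4 to 89.1 ± 12.5 CPM, and in A673 from 427 ± 18.6 to 164 ± 10.5 CPM (SD, n = 3), with log2 fold changes of -3.15, -2.21 and -1.38 (SE 0.051, 0.07 and 0.047). LIN52, a MuvB core subunit, had -1.47, -0.82 and -0.79. E2F4, a repressive partner of the DREAM complex, was called lower in TC-32 (-0.30) and higher in A673 (0.35), with 0.11 in TC-71, called only without replicate 3 of TC-71 siFLI1 (0.16). LIN37 was called higher in TC-32 (0.49). Its A673 value was 0.19, a call lost with the library size as the only scaling (0.091), after thinning (0.17), without replicate 1 (0.19) or 3 (0.17) of A673 siNeg and without replicate 2 (0.16) or 3 (0.17) of A673 siFLI1. In TC-71 LIN37 had 0.021, not called. Its exon bases are shared with annotated genes for 26.7% on the same strand and 41.8% on the opposite strand.

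Of the CDK inhibitors and G1 cyclins, CDKN1A, which encodes the inhibitor p21, rose from 35.2 ± 1.38 to 318 ± 11.7 CPM in TC-32. In TC-71 CDKN1A went from 12.9 ± 0.572 to 61.7 ± 1.29 CPM, and in A673 from 19.1 ± 0.502 to 39.8 ± 0.902 CPM, with log2 fold changes of 3.18, 2.25 and 1.06 (SE 0.05, 0.066 and 0.045). CCND1, the G1 cyclin D1, fell from 1212 ± 36.5 to 60.5 ± 2.93 CPM in TC-32. In TC-71 CCND1 went from 1437 ± 23.9 to 274 ± 22.2 CPM, and in A673 from 1618 ± 27.6 to 474 ± 4.06 CPM, with log2 fold changes of -4.32, -2.39 and -1.77 (SE 0.047, 0.048 and 0.033). Both changes were largest in TC-32 and smallest in A673. CDK6, a partner of cyclin D, was called higher in each line, with 1.58, 0.33 and 0.78. CDKN1C, which encodes the inhibitor p57, rose in TC-32 (3.70) and fell in A673 (-1.22), where it held 27 to 99 counts. In TC-71 CDKN1C had 0.66, a call lost with DESeq2 (0.64), after thinning (0.55), and without replicate 3 of TC-71 siNeg (0.49) or of TC-71 siFLI1 (0.60). Over the list, 5, 5 and 4 genes were called higher and 6, 5 and 6 lower, of 12, 13 and 10 tested, against 41.3%, 36.8% and 35.6% of all genes higher and 40.1%, 35% and 35.4% lower.

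**Figure D5:**
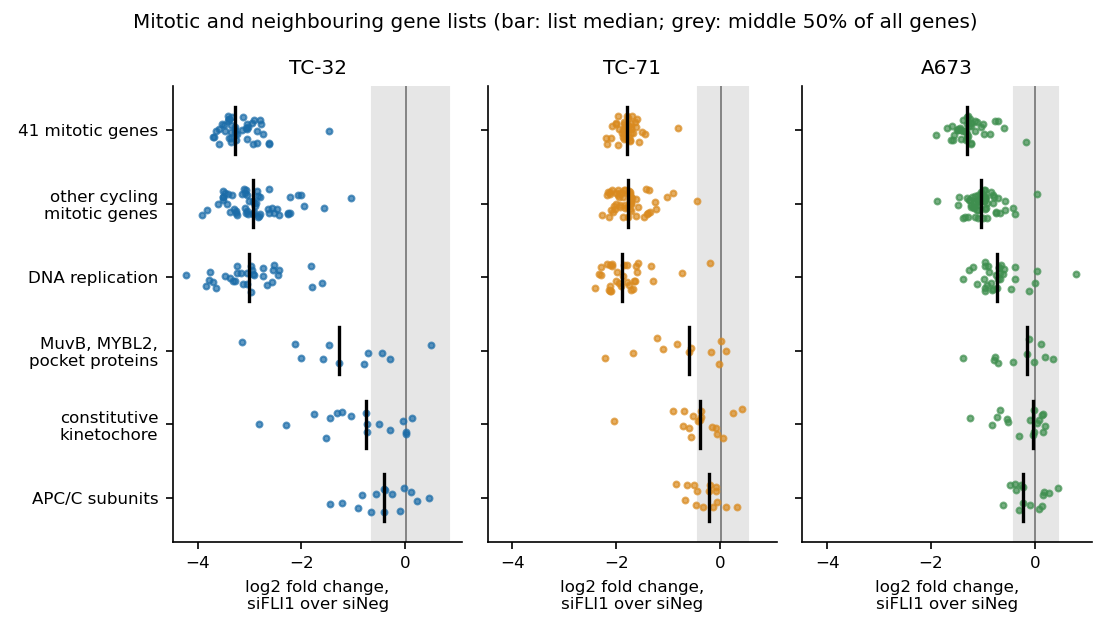
Log2 fold change of siFLI1 over siNeg (x axis) for the 41 mitotic genes and 5 neighbouring lists (y axis, 1 point per gene tested, black bar at the list median) in the 3 lines, with the middle 50% of all genes in grey and their median as a line. The 41 genes, the other cycling mitotic genes and the replication genes lie left of the grey band in TC-32 and TC-71, apart from CCNE1 in TC-71, while the constitutive kinetochore genes and the subunits of the anaphase-promoting complex (APC/C) spread from left of it into it.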

How the data were processed

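RNA from siNeg and siFLI1 cells of TC-32, TC-71 and A673 was sequenced with a stranded messenger RNA kit, per the labels' protocols. The authors' tables hold expected counts for A673 and TC-32 (RSEM, by the table names) and counts for TC-71 (Subread, by the table name), as deposited. The submitters' processing notes name cutadapt 4.4, STAR 2.7.3, featureCounts, Subread 2.0.3 and limma 3.38.3 and the builds GRCh38 and hg38, with no role given. The annotation release and strand setting are not given in the sources used here. The columns of TC-32 and TC-71 do not name the line, which rests on the name of the table. A further line and siRNA of the series text are not analysed here.

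Expected counts were rounded. In R 4.3.3, edgeR 4.0.16 fitted each line alone (filterByExpr by group, TMM scaling, robust quasi-likelihood test, prior count 0.125), with Benjamini-Hochberg adjustment over all genes tested and 0.05 as the threshold of a call. Adjusted p-values of the changes within a line come from these fits. Differences between lines were contrasts in a separate edgeR model of all 18 libraries with 6 group means, so they can differ slightly from the subtracted fold changes. Their adjusted p-values come from that model, with its own filter, scaling and adjustment. CPM are counts scaled by TMM. Percentages of all genes refer to 16227 genes tested in TC-32, 17085 in TC-71, 18444 in A673 and 19610 in the differences. Positions and shared exon bases came from GENCODE release 44, promoter sequences from RefSeq (GRCh38.p14), read with Python 3.11.15. The fits were run on simulated data with known changes in equal numbers up and down. Far fewer genes were changed there than were called here, so that run does not cover changes this wide. Alternatives were RLE factors, library size alone, other low-count filters, DESeq2 1.42.0, limma-voom (limma 3.58.1), unrounded values, thinning to 19685354 counts, a replicate block, the 12 libraries of 2 lines, and leaving out each library. Precision follows from the total counts, 19685354 in the shallowest library and 120993595 in the deepest.

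The 41 genes and the comparison lists were chosen with earlier results of these data known. Values in every library are given for 20 genes named with the design, the deepest and shallowest fall per line and the 2 largest differences per pair of lines. Of each comparison list, the 2 lowest and 2 highest genes in A673 are named, with FLI1, CDKN1A, MYBL2 and CCND1.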

Additional observations from a re-analysis of the deposited data

Results flagged for a closer look

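Several results are listed because a test of the difference itself separated the lines in their response to siFLI1. The fall of the mitotic genes differed for 41 genes between A673 and TC-32, for 41 between TC-71 and TC-32 and for 34 between A673 and TC-71. Each called difference was positive, a shallower fall in the first line of the pair. Called positive differences made up 32.2%, 32.7% and 23.2% of all genes tested in these pairs. Between A673 and TC-32, the difference in log2 fold change was 2.41 for NCAPG, 2.28 for NCAPH and 1.27 for BUB3. Between TC-71 and TC-32 it was 1.92 for NUF2, 1.76 for KIF14 and 0.67 for BUB3. Between A673 and TC-71 it was 1.09 for KIF18A, 1.02 for AURKB and 0.22 for CENPF. The FLI1 row, which does not separate the fusion transcript, went the other way. Its differences were -1.08 between A673 and TC-32, -0.65 between A673 and TC-71 and -0.43 between TC-71 and TC-32. The line and its table cannot be told apart in these differences, nor the counting tool where TC-71 is compared or the medium where A673 is compared. After thinning to equal depth, the counts were 41 (A673 and TC-32), 41 (TC-71 and TC-32) and 33 (A673 and TC-71). Of the 18469 genes tested after thinning, 5463, 5717 and 3879 had a called positive difference in these pairs. Groups of 3 libraries are too small for a test of single libraries that stand apart.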

How the results depend on the processing

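The counts of 41 lower genes in each line and of 41 genes with a shallower fall than in TC-32, in A673 and in TC-71, were the same under every alternative run, and no called direction reversed among the 41 genes. The differences of KIF14 and DLGAP5 between A673 and TC-71, near 0 and not called, changed sign under some alternatives. With the library size as the only scaling, the median over all genes in A673 moved to -0.11 (a shift of -0.10), the median of the 41 genes in A673 to -1.40 and the median difference of A673 and TC-32 to 1.79. Relative to all genes the A673 values were thus little moved. Leaving out each library, that median difference ran from 1.83 to 1.97, lowest without replicate 2 of TC-32 siFLI1. The count of genes that differed between A673 and TC-71 ran from 32 to 34 when each library was left out, lowest without replicate 2 of TC-71 siFLI1, was 36 with RLE factors and with DESeq2, and was 37 with the 12 libraries of these lines alone. Besides CENPF, the A673 and TC-71 call was lost for TTK after thinning (0.42), for PRC1 without replicate 3 of TC-71 siNeg (0.40) or replicate 2 of TC-71 siFLI1 (0.36), and for ASPM without replicate 1 of A673 siFLI1 (0.31). It was gained for NUF2 without replicate 3 of TC-71 siNeg (0.28) and without the low-count filter, for KIF11 and KIF20A with RLE factors, DESeq2 or 12 libraries, and for CDC25C with 12 libraries. The cause of these changes was not tested. No pairing by replicate number was seen. For this, the mean of its group was subtracted from the log2 CPM of each gene, and the remaining deviations were correlated between libraries of a line. The correlation of these deviations ran from -0.28 to 0.066 for same-numbered siNeg and siFLI1 libraries. It ran from -0.17 to 0.25 for differently numbered ones. Whether same-numbered libraries were handled together cannot be read from these values. With the replicate number as a block, 41 genes were lower in each line, 41 differed between A673 and TC-32 and between TC-71 and TC-32, and 34 differed between A673 and TC-71. The medians under the replicate block were -3.27, -1.79 and -1.30. Counts were low for PRC1 and CENPS in TC-71 and for CDKN1C in A673, which limits the precision of these values.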
